A study of Rattus norvegicus with 15 samples.

Results

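A group of 7 genes of glucose uptake and glycolysis was followed in rat liver tissue: the glucose transporters Slc2a1 and Slc2a3, the hexokinase Hk2, the regulatory enzyme Pfkfb3, the aldolase Aldoa, the enolase Eno1 and the lactate transporter Slc16a3. They were chosen by name, as the probes whose single platform gene symbol was one of these, and each gene had 1 probe, so that 7 of the 3400 genes measured are described. All samples were liver tissue of male rats of the Fischer344 strain (for control 1 the label says Fischer only), taken after 70 weeks on a diet. The 5 samples of hepatocellular carcinoma and the 5 samples of noncancerous, cirrhotic liver around such tumours came from rats given a choline-deficient, amino acid-defined diet, and the 5 control samples from normal liver of rats given a basal diet. Rats kept on a choline-deficient diet are known to develop a fatty, then cirrhotic liver, and later tumours, without an added carcinogen. The labels do not say which carcinoma and cirrhotic samples came from the same animal, nor that samples of a tissue are separate animals, so the p-values speak only of the spread among these samples, which may be technical.

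Glycolysis splits glucose into pyruvate, and much of it can leave the cell as lactate. The adult hepatocyte, a cell that both stores and releases glucose, relies on its own set of isoforms, among them the transporter Slc2a2 (GLUT2) and the liver pyruvate kinase (Pklr). Slc2a1 (GLUT1), Slc2a3 (GLUT3), Hk2 and Aldoa are the forms of other tissues and of many tumours, and in mammals several of these genes are targets of the hypoxia-inducible factors. Pfkfb3 makes fructose 2,6-bisphosphate, the activator of phosphofructokinase. Slc16a3 (MCT4) carries lactate out of the cell. Eno1 is the widely expressed enolase, present in normal liver as well, and is therefore no marker of a nonhepatic isoform by itself.

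The promoters of 6 of the 7 genes were matched in a RefSeq table of assembly GRCr8, in windows of 300 bases that run from 250 bases before to 50 bases after a transcript start. Slc2a3 had no entry. The core of the site bound by hypoxia-inducible factors was searched as ACGTG and GCGTG on both strands (read as CACGT and CACGC on the other strand), so that a palindromic CACGTG counts on each strand. Of all 33469 windows 41.6% held such a match, and 5 of the 9 windows of these genes did, which is a description and no evidence of binding. The 4 windows shown are those of Slc2a1, the first step of uptake, of Eno1, the gene with the largest difference below, and of Pfkfb3, the gene with its highest mean in control liver, with each match in capitals. The Slc2a1 window (chr5:138002272-138002571, plus strand) held 4 matches, the only ACGTG on the given strand beginning 51 bases before the start:
Slc2a1: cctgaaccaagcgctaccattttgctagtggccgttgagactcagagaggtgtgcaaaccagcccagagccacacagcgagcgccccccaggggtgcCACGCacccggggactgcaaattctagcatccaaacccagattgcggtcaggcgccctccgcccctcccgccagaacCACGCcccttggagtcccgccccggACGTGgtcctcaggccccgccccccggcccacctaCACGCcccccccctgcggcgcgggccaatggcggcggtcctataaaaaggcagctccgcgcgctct
Eno1 had a window at each of 2 transcript starts (chr5:166002617-166002916 and chr5:166003111-166003410, plus strand), with 1 and 2 matches:
Eno1, first start: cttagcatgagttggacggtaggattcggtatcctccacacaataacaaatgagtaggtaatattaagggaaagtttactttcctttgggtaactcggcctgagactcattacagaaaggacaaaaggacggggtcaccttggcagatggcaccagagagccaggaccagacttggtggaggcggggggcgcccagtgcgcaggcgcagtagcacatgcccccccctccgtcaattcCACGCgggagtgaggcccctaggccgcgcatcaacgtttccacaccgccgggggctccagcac
Eno1, second start: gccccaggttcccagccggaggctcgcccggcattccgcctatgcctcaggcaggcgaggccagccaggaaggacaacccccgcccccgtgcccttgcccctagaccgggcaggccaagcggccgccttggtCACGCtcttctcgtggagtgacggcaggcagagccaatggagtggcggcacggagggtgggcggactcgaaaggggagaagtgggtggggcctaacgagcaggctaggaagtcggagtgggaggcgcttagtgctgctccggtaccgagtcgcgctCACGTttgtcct
The Pfkfb3 window (chr17:71944683-71944982, plus strand) held the palindrome, counted once on each strand, 42 bases before the start:
Pfkfb3: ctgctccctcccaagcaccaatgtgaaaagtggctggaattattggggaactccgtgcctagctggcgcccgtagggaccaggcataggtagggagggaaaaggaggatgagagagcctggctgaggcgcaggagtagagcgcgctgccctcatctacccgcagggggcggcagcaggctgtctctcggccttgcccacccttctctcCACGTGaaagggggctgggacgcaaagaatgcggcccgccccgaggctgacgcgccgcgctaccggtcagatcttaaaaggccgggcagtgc
No match lay in the windows of Hk2 and Slc16a3, and 1 of the 3 windows of Aldoa held one.

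Each value below is a normalized log2 ratio, in which 0 lies near the median of that probe among all 15 arrays, so values of one gene can be set against each other and levels of different genes cannot. The arrays give no absolute level, and the presence of a transcript in a tissue could not be checked. The arrays of cirrhotic 1 and control 1 stood apart, with 209 and 229 values at the lowest deposited ratio of 0.01, while none of the values of the 7 genes lay there. The deposited ratios also shifted in stretches along the probe numbering, and for this reason each difference is set beside the one left after a running median, over the 50 probes on either side, was subtracted from each array. In bulk tissue, fewer cells of a type and less RNA per cell cannot be told apart. The number of arrays limits the precision, and limma gave no probe of the 3757 an adjusted p under 0.05 in any of the 3 comparisons (smallest 0.224).

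The 7 genes and the lists below were chosen with earlier results of these data known. The shares of all probes are therefore set beside them as a description only. Between hepatocellular carcinoma and control liver, 6 of the 7 genes had a difference above 0, as had 50.1% of all 3757 probes, with a median of 1.14 against 0.003 over all probes. At an unadjusted p under 0.05 were 2 of them, Eno1 and Slc16a3, both above 0. Of all probes 7.4% stood at that p, 3.65% above and 3.75% below 0. After subtraction of the running median there were again 2, where 8.49% of all probes stood. In no gene were the carcinoma and control values free of overlap, as they were in 1.89% of all probes. The count of 2 fell to 1 when control 2 or carcinoma 5 was left out. Between noncancerous cirrhotic and control liver, 6 of 7 had a difference above 0, against 50.7% of all probes, with a median of 0.64. At an unadjusted p under 0.05 stood 1 gene, Hk2, above 0, against 9.64% of all probes (4.02% above and 5.62% below 0). In no gene were the tissues free of overlap, as they were in 1.65% of all probes. The count of 1 was 2 without control 4. It was 0 after subtraction of the running median, where 4.02% of all probes stood. Between hepatocellular carcinoma and noncancerous cirrhotic liver 5 of 7 had a difference above 0, against 49.3% of all probes, with a median of 0.57. At an unadjusted p under 0.05 stood 2, Eno1 above 0 and Hk2 below 0, against 13.2% of all probes (6.95% above and 6.28% below 0). No gene was free of overlap, as 2.71% of all probes were. After subtraction of the running median the 2 genes were Slc2a3 and Eno1, where 9.87% of all probes stood. On normalized values that count was 1 without cirrhotic 2, 3 or 4 or carcinoma 1, 2 or 5. The first 2 comparisons share the control samples, and each of the 3 shares samples with both of the others.

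**Figure D1:**
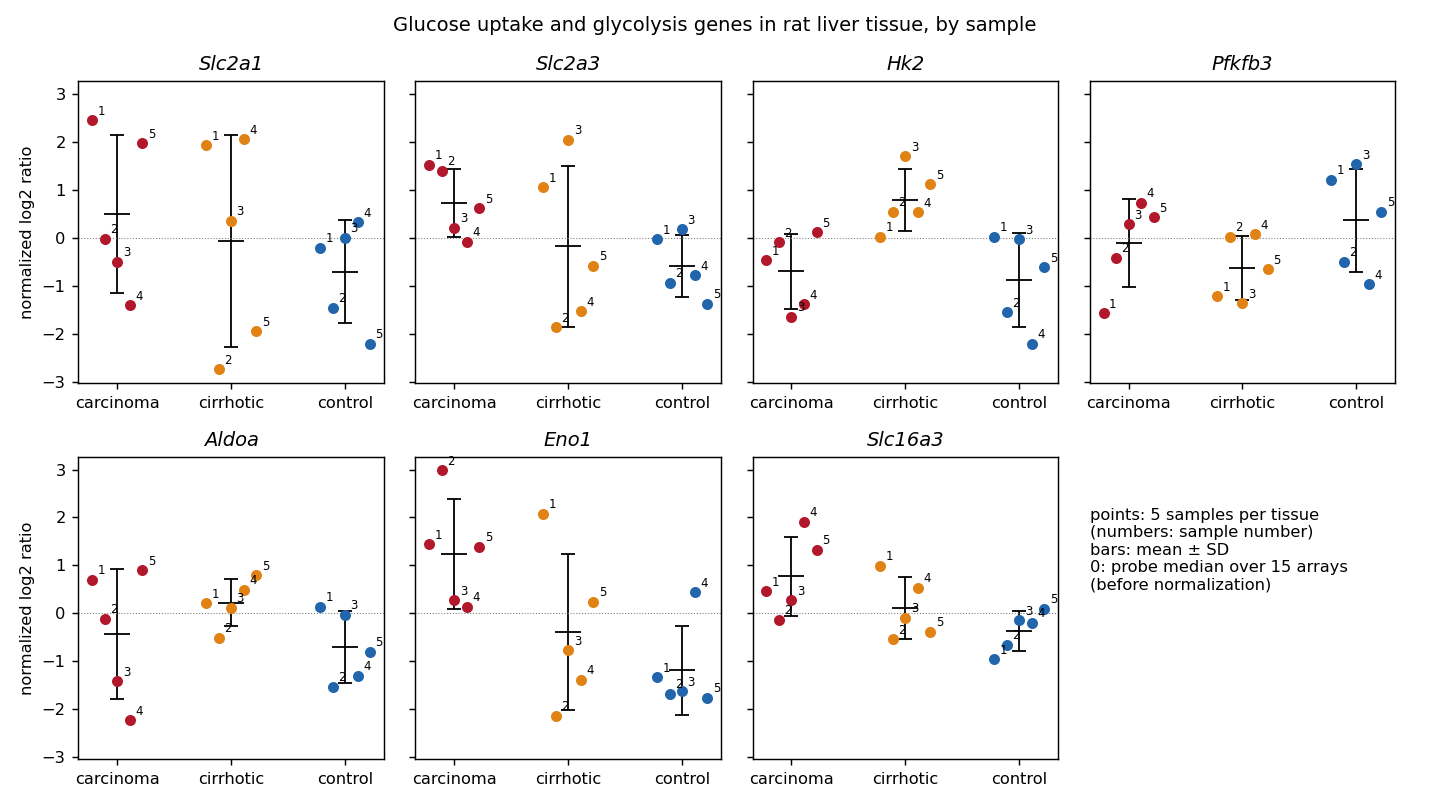
Normalized log2 ratio (vertical axis) of the 7 genes in each of 5 carcinoma, 5 cirrhotic and 5 control samples, with the sample number beside each point and bars for the mean and SD. All 5 carcinoma values of Eno1 lie above 4 of the 5 control values, control 4 being the exception at 0.44, and all 5 cirrhotic values of Hk2 lie at or above 0.02.

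Slc2a1, the glucose transporter of the blood-brain barrier, had log2 ratios of 2.46, -0.02, -0.50, -1.41 and 1.97 in carcinoma samples 1 to 5. In cirrhotic samples 1 to 5 they were 1.93, -2.75, 0.36, 2.05 and -1.95, and in control samples 1 to 5 they were -0.21, -1.46, 0.003, 0.32 and -2.21. Carcinoma 1 and 5 and cirrhotic 1 and 4 were about 2 log2 units above the probe's median, whereas no control sample went above 0.32. The means were 0.50 ± 1.65 in carcinoma, -0.07 ± 2.20 in cirrhotic and -0.71 ± 1.08 in controls (n = 5 per tissue, SD), and neighbours in that order differed by less than their spread. Carcinoma differed from control by 1.21 (95% interval -0.59 to 3.01, limma adjusted p = 0.766), and by 0.72 without carcinoma 1. Cirrhotic differed from control by 0.64 (-1.16 to 2.44, adjusted p = 0.813), a value between 0.11 without cirrhotic 4 and 1.31 without cirrhotic 2. It was 0.0 as rounded with array weights, 0.25 after subtraction of the running median and 1.12 on the values as deposited. The difference of carcinoma from cirrhotic liver was 0.57 (-1.23 to 2.37, adjusted p = 0.795), and -0.10 without cirrhotic 2.

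Slc2a3, a glucose transporter of high affinity best known from neurons, had 1.52, 1.39, 0.21, -0.09 and 0.61 in carcinoma samples 1 to 5. The cirrhotic values were 1.06, -1.86, 2.04, -1.53 and -0.58, and the control values -0.03, -0.93, 0.17, -0.78 and -1.38. Of the carcinoma values 4 of 5 lay above the highest control value, while the cirrhotic samples reached beyond the other tissues at both ends. Means were 0.73 ± 0.71 in carcinoma, -0.17 ± 1.68 in cirrhotic and -0.59 ± 0.65 in controls (n = 5 per tissue, SD). The difference of carcinoma from control was 1.32 (0.00 to 2.64 as rounded, the lower bound just below 0, unadjusted p = 0.0502 and limma adjusted p = 0.656). After subtraction of the running median it was 1.24, and the carcinoma and control values then did not overlap, as held for 2.02% of all probes under that setting. Cirrhotic liver differed from control by 0.41 (-0.91 to 1.73, adjusted p = 0.84), a value of -0.14 without cirrhotic 3 and -0.07 with the local median subtracted. Carcinoma differed from cirrhotic liver by 0.90 (-0.42 to 2.22, adjusted p = 0.525), and by 1.31 (0.04 to 2.59) with the local median subtracted. It was 0.48 without cirrhotic 2, 0.57 without cirrhotic 4 and 1.46 without cirrhotic 3.

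Hk2, the hexokinase of muscle and many tumours that commits glucose to the cell by phosphorylating it, had its highest mean in cirrhotic liver. Its carcinoma values were -0.46, -0.10, -1.65, -1.38 and 0.12. The cirrhotic values were 0.02, 0.55, 1.71, 0.54 and 1.11, and the control values 0.02, -1.55, -0.03, -2.21 and -0.62. Apart from cirrhotic 1, every cirrhotic value lay above all carcinoma and all control values. Means were -0.70 ± 0.78 in carcinoma, 0.78 ± 0.64 in cirrhotic and -0.88 ± 0.98 in controls (n = 5 per tissue, SD), so that carcinoma and control differed by less than their spread. The difference of cirrhotic from control liver was 1.66 (0.45 to 2.87, unadjusted p = 0.00935, limma adjusted p = 0.391), 3.16-fold on the ratio scale. Carcinoma differed from cirrhotic liver by -1.48 (-2.69 to -0.27, unadjusted p = 0.0188, adjusted p = 0.284) and from control by 0.18 (-1.03 to 1.39, adjusted p = 0.959; -0.15 without control 4 and -0.02 without carcinoma 5).

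The Hk2 values ran with those of probes of neighbouring numbers. The running median of the probes around Hk2 averaged -0.25 in carcinoma, 0.54 in cirrhotic and -0.27 in control liver. With it removed, the difference of cirrhotic from control was 0.86 (-0.09 to 1.80), and that of carcinoma from cirrhotic liver was -0.70 (-1.64 to 0.25). The Hk2 values of cirrhotic samples 1 to 5 were then -0.12, 0.33, 1.02, -0.37 and 0.38. The same step left Eno1 at 2.58 (1.22 to 3.93) between carcinoma and control, where the local running median averaged -0.04 in carcinoma and 0.10 in control liver. How much of the Hk2 difference goes with the neighbouring probes was not tested further.

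**Figure D2:**
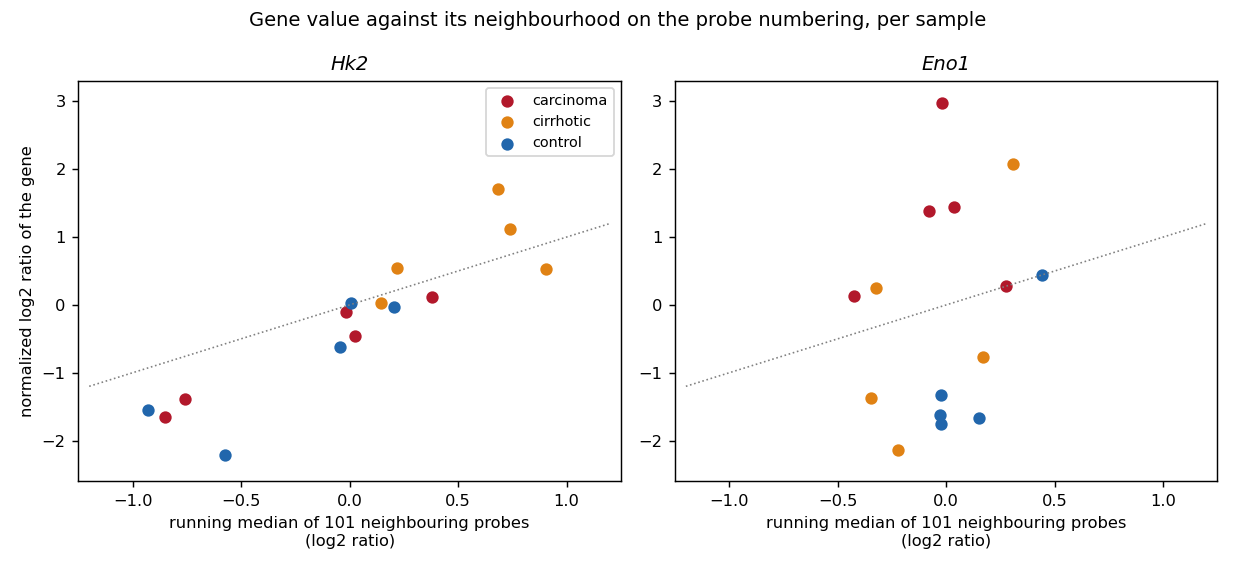
For Hk2 and Eno1, the normalized log2 ratio in each sample (vertical axis) against the running median of the probes around it on the probe numbering (horizontal axis), with equality as a dotted line. The Hk2 points follow their neighbourhood, with carcinoma 3 and 4 and control 2 and 4 at the left and cirrhotic 3, 4 and 5 at the right, while the Eno1 points spread from -2.13 to 2.98 over neighbourhood values that stay between -0.43 and 0.44.

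Pfkfb3 was the gene whose mean lay highest in control liver. Its values were -1.57, -0.42, 0.28, 0.73 and 0.43 in carcinoma samples 1 to 5. In cirrhotic samples they were -1.22, 0.02, -1.37, 0.07 and -0.65, and in control samples 1.21, -0.50, 1.54, -0.96 and 0.54. Control 1 and 3 were the highest of all 15 samples, and the tissues overlapped throughout. Means were -0.11 ± 0.92 in carcinoma, -0.63 ± 0.67 in cirrhotic and 0.37 ± 1.08 in controls (n = 5 per tissue, SD). Carcinoma differed from control by -0.47 (-1.67 to 0.73, limma adjusted p = 0.855), by -0.11 without carcinoma 1 and by 0.20 without the 3 arrays of widest spread (control 1, control 3 and cirrhotic 1). Cirrhotic liver differed from control by -1.0 (-2.2 to 0.20, adjusted p = 0.565), and by -0.16 with the local median subtracted, where the local median averaged -0.39 in cirrhotic and 0.44 in control liver. Carcinoma differed from cirrhotic liver by 0.52 (-0.68 to 1.72, adjusted p = 0.706), and by 0.003 with the local median subtracted.

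Aldoa, the aldolase of muscle and of fetal liver that cleaves fructose 1,6-bisphosphate, had 0.71, -0.11, -1.41, -2.22 and 0.90 in carcinoma samples 1 to 5. The cirrhotic values were 0.22, -0.50, 0.12, 0.49 and 0.79, and the control values 0.14, -1.52, -0.03, -1.30 and -0.80. The cirrhotic values lay within a narrow band, and carcinoma reached beyond both other tissues in each direction. Means were -0.42 ± 1.35 in carcinoma, 0.22 ± 0.48 in cirrhotic and -0.70 ± 0.74 in controls (n = 5 per tissue, SD). Cirrhotic liver differed from control by 0.93 (-0.38 to 2.24, limma adjusted p = 0.622; 0.49 with the local median subtracted). Carcinoma differed from control by 0.28 (-1.03 to 1.59, adjusted p = 0.937), which became -0.01 without carcinoma 1 and -0.06 without carcinoma 5. Carcinoma differed from cirrhotic liver by -0.65 (-1.96 to 0.66, adjusted p = 0.659; -0.20 without carcinoma 4).

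Eno1, which turns 2-phosphoglycerate into phosphoenolpyruvate, had the largest difference of the 7 genes. Its values were 1.44, 2.98, 0.28, 0.14 and 1.39 in carcinoma samples 1 to 5, against -1.32, -1.67, -1.62, 0.44 and -1.76 in control samples. Control 4 stood apart from the other 4 control samples, which were all low, and lay above the 2 lowest carcinoma values. The cirrhotic values were 2.07, -2.13, -0.76, -1.38 and 0.25, from below the lowest control value to above all carcinoma values but one. Means were 1.24 ± 1.14 in carcinoma, -0.39 ± 1.63 in cirrhotic and -1.19 ± 0.93 in controls (n = 5 per tissue, SD). Carcinoma differed from control by 2.43 (0.98 to 3.89, unadjusted p = 0.00213, limma adjusted p = 0.459), or 5.39-fold (1.97 to 14.8), and the difference lay between 2.0 without carcinoma 2 and 2.84 without control 4. By unadjusted p it ranked 14 among the 3757 probes. Carcinoma differed from cirrhotic liver by 1.63 (0.18 to 3.09, unadjusted p = 0.0293, adjusted p = 0.327), and by 2.25 without cirrhotic 1. Cirrhotic liver differed from control by 0.80 (-0.66 to 2.25, adjusted p = 0.696), and by 0.18 without cirrhotic 1.

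Slc16a3, the carrier through which glycolytic cells export lactate, had 0.47, -0.13, 0.28, 1.91 and 1.33 in carcinoma samples 1 to 5. The cirrhotic values were 1.0, -0.53, -0.09, 0.54 and -0.38, and the control values -0.95, -0.65, -0.14, -0.19 and 0.10. All carcinoma values except that of carcinoma 2 lay above the highest control value. Means were 0.77 ± 0.83 in carcinoma, 0.11 ± 0.65 in cirrhotic and -0.37 ± 0.42 in controls (n = 5 per tissue, SD), with cirrhotic liver between the other tissues and apart from neither beyond the spread. The difference of carcinoma from control was 1.14 (0.11 to 2.16, unadjusted p = 0.0314, limma adjusted p = 0.645), or 2.20-fold (1.08 to 4.48). It was 1.19 with the local median subtracted and 0.85 without carcinoma 4. Cirrhotic liver differed from control by 0.47 (-0.55 to 1.5, adjusted p = 0.741; 0.25 without cirrhotic 1), and carcinoma from cirrhotic liver by 0.67 (-0.36 to 1.69, adjusted p = 0.55; 0.38 without carcinoma 4).

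**Figure D3:**
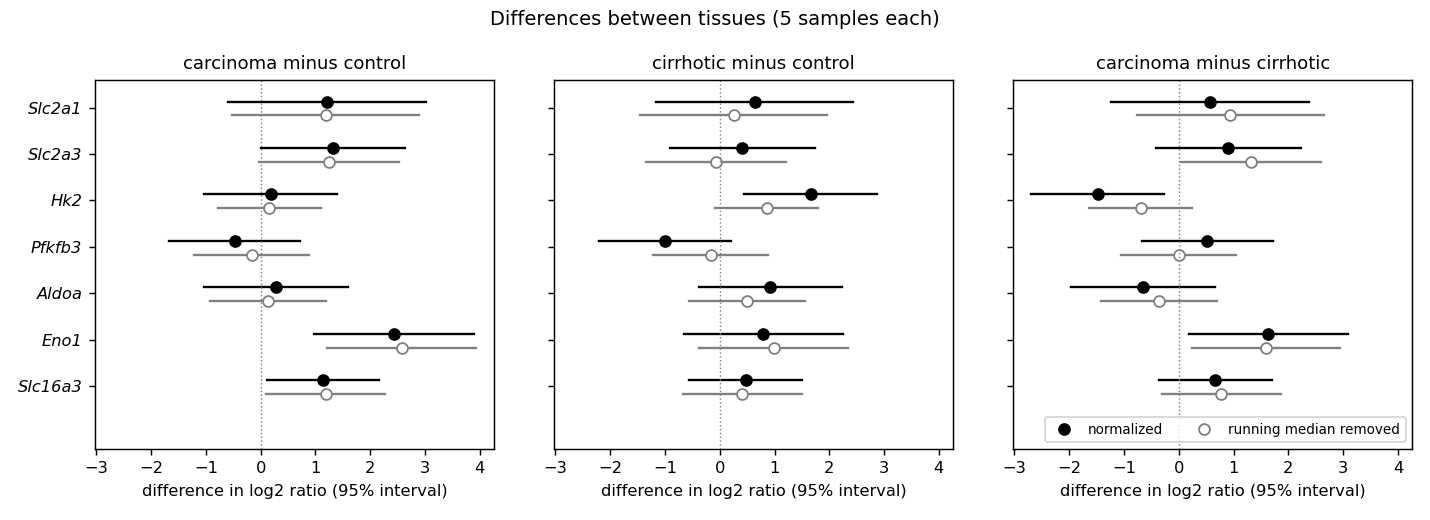
Differences in log2 ratio between tissues (horizontal axis) with 95% intervals for the 7 genes, on normalized values (filled) and after subtraction of the running median (open). The interval of Eno1 clears 0 in both comparisons with carcinoma under both settings, while that of Hk2 between cirrhotic and control liver reaches 0 once the running median is removed.

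Across samples the genes did not form one block. Carcinoma 5 had all 7 genes above 0 and cirrhotic 1 had 6, whereas control 2 had 0. The other carcinoma samples had 2 to 5, the other cirrhotic samples 2 to 5 and the other control samples 2 or 3, and on each array between 45.7% and 50.8% of all probes lay above 0. With the local median subtracted, carcinoma 5 had 6, control 2 had 0, and cirrhotic 1, an array that stood apart, had 4. Slc2a1, Slc2a3 and Eno1 were high together in carcinoma 1, carcinoma 5 and cirrhotic 1 and low together in cirrhotic 2, control 2 and control 5. Hk2 and Aldoa were low together in carcinoma 3 and 4 and control 2 and 4.

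**Figure D4:**
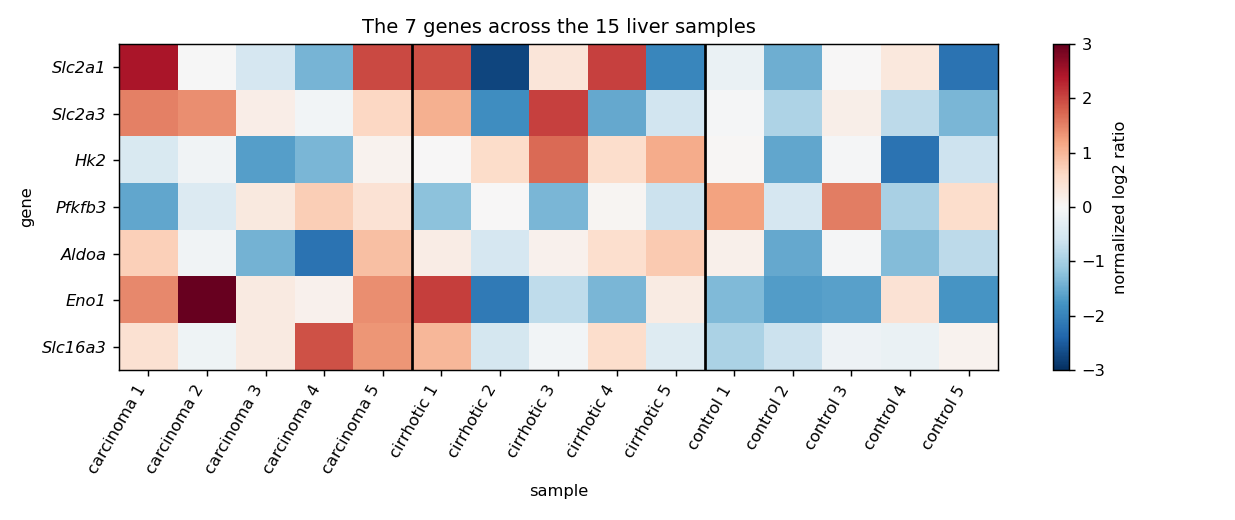
Normalized log2 ratio (colour) of the 7 genes (rows) in the 15 samples (columns). Carcinoma 5 is above 0 in all 7 genes and control 2 in none, and Hk2 is above 0 in all 5 cirrhotic samples.

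Of the 21 pairs among the 7 genes, the correlation over the 15 samples was highest for Hk2 and Aldoa, with Pearson r = 0.751 (permutation p = 0.00112, adjusted over the 21 pairs 0.0235) and Spearman rho = 0.689 (permutation p = 0.00541, adjusted 0.0568). It was 0.807 without the 2 samples farthest from the Hk2 median, 0.719 within tissues, and 0.493 with the local median subtracted. Slc2a3 and Eno1 followed with r = 0.661 (permutation p = 0.00804, adjusted 0.0844) and rho = 0.714 (permutation p = 0.00369, adjusted 0.0568), with 0.791 without the 2 farthest samples, 0.519 within tissues and 0.543 with the local median subtracted. Slc2a1 correlated with Slc2a3 at r = 0.546 (permutation p = 0.0371, adjusted 0.221; rho = 0.561, permutation p = 0.0329, adjusted 0.14), which fell to 0.332 without the 2 samples farthest from the Slc2a1 median. Hk2 and Eno1, by contrast, had r = -0.0867 (permutation p = 0.759, adjusted 0.811; rho = -0.146, permutation p = 0.604, adjusted 0.793), and Pfkfb3 had r below 0.01 with each of the other 6 genes. All pairs share the same arrays. The permutations moved samples freely across tissues, so tissue differences and shifts along the probe numbering enter these p-values. No p-value was computed within tissues or with the local median subtracted.

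For each gene the probes of other genes with the most similar profile over the 15 arrays were taken by Pearson correlation, given as a description of profiles that share arrays. Slc2a1 was nearest to Cacna1c, a calcium channel subunit 14 probe numbers away (0.921, and 0.907 with the local median subtracted), and to Ahsg, the hepatocyte plasma protein fetuin-A (0.899 and 0.845). Eno1 was nearest to Faim2 (0.900 and 0.864) and Atp6v1f, a subunit of the vacuolar proton pump (0.886 and 0.812). Slc16a3 was nearest to the galanin receptor Galr3 (0.807 and 0.808) and to Celsr3 (0.792 and 0.745), and Slc2a3 to Aspg (0.843 and 0.777) and the somatostatin receptor Sstr5 (0.816 and 0.762). For Aldoa, the likeness to Cr1l was 0.946 and 0.721 with the local median subtracted, and to the cyclin Ccnd2 it was 0.930 and 0.852. Hk2 was nearest to the lysosomal thioesterase Ppt1 (0.887 and 0.746) and to Gak (0.886 and 0.746). Pfkfb3 was nearest to Dkc1 (0.854 and 0.598) and to the complement protease C1s, 11 probe numbers away (0.830 and 0.675), which came 80 and 33 in the order of likeness once the local median was subtracted. The other profiles named came between 2 and 38 in that order.

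Of 28 further glycolytic enzymes and transporters listed, 21 were measured. Between hepatocellular carcinoma and control liver 14 of the 21 had a difference above 0, with a median of 0.41 against 0.003 over all probes. There were 2 of the 21 at an unadjusted p under 0.05, both above 0, a share near the 7.4% of all probes (3.65% above 0): Ldha, the lactate dehydrogenase subunit that favours lactate, and Bsg, the partner protein that brings lactate carriers such as Slc16a3 to the cell surface. Ldha had 1.44, 0.21, 0.38, 0.23 and 0.77 in carcinoma and -0.51, 0.16, -0.42, -0.78 and -0.82 in control samples, with no overlap, as was so for 1.89% of all probes in this comparison. The difference was 1.08 (0.05 to 2.10, limma adjusted p = 0.656). Bsg had 0.55, 0.62, 1.35, 0.39 and 1.14 in carcinoma, and 0 or less in all control samples (-1.64 to -0.002), again with no overlap, a difference of 1.48 (0.32 to 2.64, adjusted p = 0.564). The other lactate dehydrogenase subunits and lactate carriers measured had differences of -0.11 for Ldhb, -0.40 for Ldhc, 0.11 for Slc16a1 and 0.76 for Slc16a7 between carcinoma and control, with limma adjusted p from 0.767 to 0.986. For Slc16a7 control 1 was at -2.39, while the other control values ran from -0.21 to 0.89. The carcinoma means also lay above those of cirrhotic liver, by 1.15 for Ldha (0.13 to 2.18, limma adjusted p = 0.327). For Bsg it was by 1.24 (0.07 to 2.40, limma adjusted p = 0.355), and 0.70 with the local median subtracted. Here the values of both genes overlapped, with Ldha at 0.34 in cirrhotic 1 and Bsg at 1.15 in cirrhotic 3.

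Between noncancerous cirrhotic and control liver 16 of the 21 had a difference above 0, with a median of 0.48, which was 0.18 with the local median subtracted. At an unadjusted p under 0.05 were 2 of the 21, against 9.64% of all probes: Tpi1, the triose phosphate isomerase, with a difference of 2.25 (0.67 to 3.83, limma adjusted p = 0.372; 1.27 with values at the lowest ratio treated as missing and 3.86 on the values as deposited), and Pdk2, a kinase that holds back pyruvate dehydrogenase, with 1.29 (0.06 to 2.53, adjusted p = 0.502; 0.63 with the local median subtracted). Between hepatocellular carcinoma and noncancerous cirrhotic liver 6 of the 21 lay above 0, with a median of -0.37, which was 0.002 with the local median subtracted. There were 4 of the 21 at an unadjusted p under 0.05, against 13.2% of all probes. Besides Ldha and Bsg, Pkm, the pyruvate kinase of tissues other than liver, was one of the 3 above 0. It had 0.68, 0.82, 0.37, 0.78 and 0.30 in carcinoma and -0.03, -0.92, -1.10, -0.18 and -1.32 in cirrhotic samples. These did not overlap, as was so for 2.71% of all probes, and differed by 1.3 (0.38 to 2.21, adjusted p = 0.243; 0.74 with the local median subtracted). Ldhc, the testis form of lactate dehydrogenase, lay below 0 by -1.04 (-2.02 to -0.05, adjusted p = 0.355; -0.45 with the local median subtracted).

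Of 19 symbols listed as liver-type counterparts and genes of glucose release, 11 were measured, among them Slc2a2. Between hepatocellular carcinoma and control liver 4 of the 11 lay above 0, with a median of -0.14, and the 2 genes at an unadjusted p under 0.05 both lay below 0, where 7.4% of all probes stood at that p (3.75% below 0). G6pc1, the glucose 6-phosphatase that frees glucose for release, had -1.65, -0.42, -0.86, 0.35 and -3.03 in carcinoma and 0.75, 0.98, 1.11, -0.05 and 1.86 in control samples. Only carcinoma 4 reached into the control range, and the difference was -2.05 (-3.68 to -0.43, limma adjusted p = 0.564). Gys2, the liver glycogen synthase, ran from -4.78 to 0.31 in carcinoma and from 0.55 to 1.19 in control samples, with no overlap (1.89% of all probes), a difference of -2.06 (-3.66 to -0.46, adjusted p = 0.564), which was -1.17 without carcinoma 4. Slc2a2 itself differed by -0.24 (-1.76 to 1.29, adjusted p = 0.956). In cirrhotic against control liver none of the 11 stood at an unadjusted p under 0.05, against 9.64% of all probes (G6pc1 -1.50, -3.13 to 0.13). Carcinoma against cirrhotic liver had 1 of 11, against 13.2% of all probes, Pc, the pyruvate carboxylase that opens gluconeogenesis, with 1.62 (0.23 to 3.02, adjusted p = 0.315; 1.04 with the local median subtracted).

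**Figure D5:**
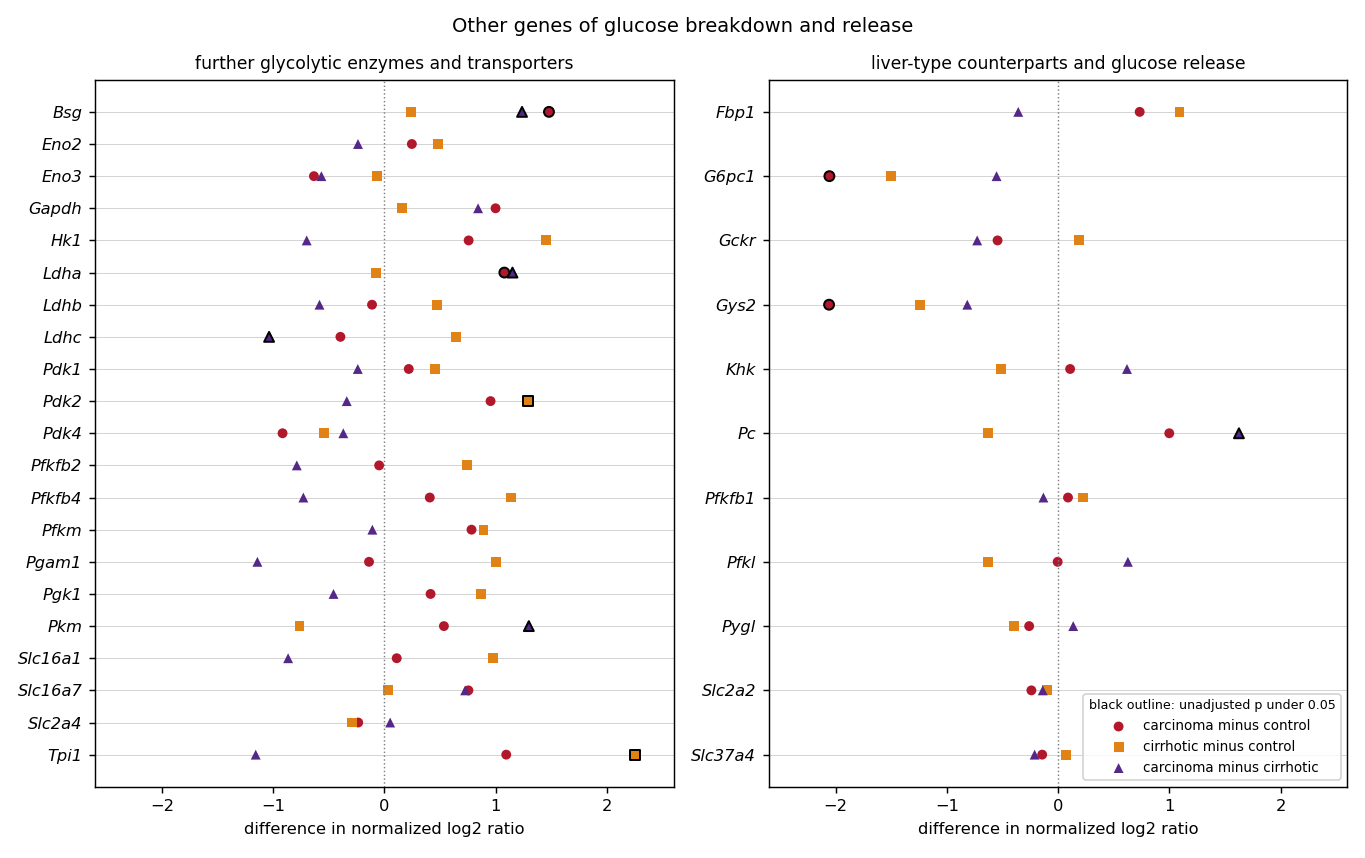
Differences in normalized log2 ratio (horizontal axis) for 21 further glycolytic genes and 11 liver-type and glucose release genes, with a symbol for each comparison and a black outline at an unadjusted p under 0.05. Ldha and Bsg lie to the right of 0 for both comparisons of carcinoma, and G6pc1 and Gys2 lie near -2 for carcinoma against control.

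Of 21 hypoxia-responsive genes listed 13 were measured, and the median difference was 0.09 between hepatocellular carcinoma and control liver, with 0 of 13 at an unadjusted p under 0.05, against 7.4% of all probes. Cirrhotic against control liver had 1 of 13, no more than the 9.64% of all probes (5.62% below 0), Hmox1 (haem oxygenase), with -1.44 (-2.51 to -0.37, limma adjusted p = 0.392), which was -0.38 with the local median subtracted. Carcinoma against cirrhotic liver had 0 of 13, against 13.2% of all probes.

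Markers of other cells were set beside these values, and limma gave 0 of the measured markers an adjusted p under 0.05. Between hepatocellular carcinoma and control liver the median difference was 0.49 for 11 of 12 hepatocyte markers, 0.41 for 7 of 20 macrophage and leukocyte markers, 0.41 for 8 of 10 stellate cell markers, 0.42 for 3 of 7 erythroid, -0.38 for 4 of 8 bile duct and -0.43 for 3 of 8 endothelial markers. For noncancerous cirrhotic against control liver, where Hk2 had its difference, the stellate cell markers had a median of -0.24, from -1.37 to 0.735. Of these markers 3 of 8 lay above 0, with Pdgfrb the highest. At an unadjusted p under 0.05, 3 of 8 lay below 0, against 9.64% of all probes (4.02% above and 5.62% below 0). The hepatocyte markers had a median of -0.004, from -1.52 to 2.35, with 2 of 11 above 0 at that p. The 3 endothelial markers went both ways there, Flt1 at 1.09, Kdr at 0.94 and Vwf at -1.24, the last at an unadjusted p under 0.05. Between carcinoma and cirrhotic liver 13.2% of all probes stood at that p (6.95% above and 6.28% below 0). The endothelial markers had a median of -1.09, with 1 of 3 below 0 at that p. The stellate cell markers had 0.88, with 2 of 8 above and 1 of 8 below 0 at that p. The hepatocyte markers had 0.245, from -3.037 to 1.915, with 3 of 11 above and 1 of 11 below 0 at that p. The mean of the stellate cell markers per sample ran from -0.07 to 0.74 in carcinoma, from -0.55 to -0.35 in cirrhotic and from -0.25 to 0.20 in control liver, so that the lowest of these means were those of the cirrhotic liver. That of the leukocyte markers ran from -0.28 to 0.67 in carcinoma, from -0.53 to 0.05 in cirrhotic and from -0.72 to 0.25 in control liver. That of the hepatocyte markers ran from -0.55 to 1.11 in carcinoma, from -1.09 to 1.49 in cirrhotic and from -1.09 to 0.50 in control liver. Alb (albumin) was lowest in cirrhotic 2 at -5.40 and in control 5 at -4.07, the samples in which Slc2a1 was lowest too. The hepatocyte markers did not all go this way, as Otc was 3.27 in cirrhotic 2, its highest value, and 1.62 in control 5. In cirrhotic 2 Apoa1, Cyp2e1 and Fgb were each 0.02, Hpx was -0.06 and Cps1 -1.23. Ass1, Tat, Serpina1 and Ttr ran there from -1.81 to -2.66. In control 5 Hpx was 0.105, Cyp2e1 -0.10, Cps1 -0.78, Fgb -0.84 and Apoa1 -0.86. Ttr, Ass1, Serpina1 and Tat ran there from -1.17 to -2.31. The part of the cell makeup in the differences of the 7 genes was not tested.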

How the data were processed

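Transcripts were measured on 15 single arrays, 5 per tissue, grouped by the sample titles. What the authors deposited is a ratio on a linear scale. Tested on the file, each of the 3757 probes had a median of 1 across arrays (tolerance 1e-06). The lowest deposited ratio was 0.01. The kind of array, its dyes and the steps behind the ratio were not given in the sources used here. All 15 columns were used and 0 left aside. Genes were named through the platform annotation: 3440 probes had 1 symbol, and 3429 of these were found by gene identifier in RefSeq genes of GRCr8.

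Array means trimmed by 2% on both sides differed up to 1.49-fold, so ratios were quantile-normalized and put on the log2 scale, with no pseudocount or filter. All samples entered 1 limma fit (limma 3.58.1, R 4.3.3; lmFit, then eBayes with trend; tissue as the single term; residual degrees of freedom 12). P-values are two-sided and carry a Benjamini-Hochberg adjustment across all 3757 probes, with a threshold of 0.05. Pair correlations used 100000 permutations of the samples. The members and lists were chosen with earlier results of these data known. The 7 genes were always named, the 2 nearest profiles of each gene by correlation, and of the lists the genes given above. Figures were drawn with matplotlib 3.10.9.

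Alternatives were the values as deposited, scaling to the array median, a running median along the probe numbering removed, values at the lowest ratio as missing, a pseudocount, a filter on low values, a floor, no trend, only the 2 groups compared, array weights, the replicate block, leaving out samples, and, chosen after seeing the data, leaving out the 3 arrays of widest spread.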

Additional observations from a re-analysis of the deposited data

Results flagged for a closer look

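In control liver, the Eno1 value of control 4, a log2 ratio of 0.44, lay far from the other 4 control values, which ran from -1.76 to -1.32. Its gap to the nearest of them took 0.802 of the whole range of the group. The limit used for a group of 5 is one that chance passes in about 1 of 20 groups, and 21 groups of 5 samples (7 genes in 3 tissues) were examined. Without control 4 the difference of hepatocellular carcinoma from control was 2.84.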

How the results depend on the processing

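With 28 alternatives for each of the 21 differences of the 7 genes, 579 of 588 recomputed values kept their direction, and 0 passed an adjusted p of 0.05 in limma (lowest 0.0946). The other 9 belonged to differences whose interval held 0, and their cause was not tested beyond the samples named. Between carcinoma and control, leaving out 1 sample gave Hk2 from -0.15 to 0.42 and Aldoa from -0.06 to 0.73, and Pfkfb3 was 0.20 without the 3 arrays of widest spread, an alternative chosen after seeing the data. Between cirrhotic and control, leaving out 1 sample gave Slc2a3 from -0.14 to 0.84. Slc2a3 was -0.07 after subtraction of the running median, and Eno1 -0.01 without the 3 arrays of widest spread. Between carcinoma and cirrhotic liver, leaving out 1 sample gave Slc2a1 from -0.10 to 1.1. The number of the 7 genes at an unadjusted p under 0.05 ran, with 1 sample left out, from 1 to 3 for carcinoma against control, from 1 to 2 for cirrhotic against control and from 1 to 2 for carcinoma against cirrhotic. For cirrhotic against control it was 0 after subtraction of the running median and 2 when ratios under the 25th percentile were set to it. For carcinoma against cirrhotic it was 1 on the values as deposited and 1 with arrays scaled to the same median. Of all probes, 0 to 2 passed an adjusted p of 0.05 for carcinoma against cirrhotic with 1 sample left out, the 2 without cirrhotic 5. The number of all probes at an unadjusted p under 0.05 was 476 against 278 for carcinoma against control without the 3 widest arrays, 151 against 362 for cirrhotic against control after subtraction of the running median, and 756 against 497 for carcinoma against cirrhotic with array weights.

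Samples of the same number did not pair throughout: of 15 same-number pairs 6 had deviations correlated over 0.1 (-0.34 to 0.387). Among these were all 3 pairs of number 1 (0.191 to 0.387), which holds the arrays of cirrhotic 1 and control 1 that stood apart. With the replicate block the 7 genes had 3, 1 and 2 at an unadjusted p under 0.05 in the order above, Slc2a3 being added between carcinoma and control at 1.32 (unadjusted p = 0.0346, limma adjusted p = 0.647), and 0 passed the adjusted threshold. Averaging the probes of a gene gave no value of its own, since each gene had 1 probe.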
